A study of Mus musculus with 25 samples.

Results

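Loss of SAMHD1 in macrophages that still carry both cytosolic RNA sensors, MDA5 and RIG-I, was examined by comparing the 4 libraries of SAMHD1 KO macrophages with the 5 libraries of WT macrophages, 9 of the 25 libraries of the series, across all genes of the deposited table. Libraries were chosen by genotype alone. The table lists 13266 genes, of which 13252 reached 10 normalized counts in 4 or more libraries and were tested. A normalized count is the number of reads of a gene divided by the size factor of its library.

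The cells were mouse peritoneal macrophages, untreated and taken at Day 0, and total RNA was sequenced. SAMHD1 KO carried the loss of Samhd1 alone and WT carried no knockout. The series holds 4 more genotypes with 4 libraries each: RIG-I KO and SAMHD1, RIG-I DKO, and also MDA5 KO with SAMHD1, MDA5 DKO. The strain and age of the mice, the design of the knockout alleles and the number of animals behind a library were not stated in the labels. The p-values therefore describe only how far libraries of a genotype scatter, and this scatter may be technical in part. It was pooled over all 25 libraries of the 6 genotypes. Of the SAMHD1 KO sample titles, 2 write DEL and 2 write KO, and it was not possible to say which column belongs to which title. Libraries are therefore numbered by column within a genotype, as a name only.

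SAMHD1 is an enzyme that breaks down deoxynucleoside triphosphates and keeps their supply low in cells that do not divide, such as macrophages. In people, loss of its function causes Aicardi-Goutieres syndrome, an inflammatory disease in which type I interferon is produced without infection. Type I interferon acts through its receptor, the Janus kinases and a complex of STAT proteins with IRF9, which binds interferon-stimulated response elements in promoters and switches on antiviral genes. One of these genes encodes IRF7, which in turn drives further interferon production, so the interferon-stimulated genes serve as a readout of interferon that is itself often too scarce to detect.

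Promoters of Irf7 and of the 4 motif holders among the 12 genes with positive changes described below are printed, to show what a match looks like. They run from 250 bases before to 50 bases after the annotated start, 5′ to 3′ on the strand of the gene, from RefSeq on GRCm38.p6. Capitals mark matches to GAAANNGAAA, the core of the response element, searched on both strands.
Irf7 (chr7:141266375-141266674, minus strand): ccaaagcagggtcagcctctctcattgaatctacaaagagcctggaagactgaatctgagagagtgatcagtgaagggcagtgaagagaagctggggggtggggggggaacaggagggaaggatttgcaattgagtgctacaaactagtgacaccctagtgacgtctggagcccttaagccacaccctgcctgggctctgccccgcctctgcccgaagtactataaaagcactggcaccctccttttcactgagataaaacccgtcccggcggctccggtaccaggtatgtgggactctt
Ifi206 (chr1:173491269-173491568, minus strand): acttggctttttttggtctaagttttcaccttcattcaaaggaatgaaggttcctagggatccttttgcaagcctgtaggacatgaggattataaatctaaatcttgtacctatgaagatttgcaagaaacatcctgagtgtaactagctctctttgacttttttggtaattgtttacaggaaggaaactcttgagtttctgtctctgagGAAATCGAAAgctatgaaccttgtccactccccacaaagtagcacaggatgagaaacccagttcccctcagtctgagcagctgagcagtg
Ifi213 (chr1:173599223-173599522, minus strand): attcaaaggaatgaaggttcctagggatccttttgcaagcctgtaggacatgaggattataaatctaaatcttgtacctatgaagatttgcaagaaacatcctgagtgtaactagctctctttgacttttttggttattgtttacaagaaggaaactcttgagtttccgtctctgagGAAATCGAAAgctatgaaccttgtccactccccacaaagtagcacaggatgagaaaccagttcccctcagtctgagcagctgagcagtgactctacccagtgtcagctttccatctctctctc
Oas1g (chr5:120887564-120887863, minus strand): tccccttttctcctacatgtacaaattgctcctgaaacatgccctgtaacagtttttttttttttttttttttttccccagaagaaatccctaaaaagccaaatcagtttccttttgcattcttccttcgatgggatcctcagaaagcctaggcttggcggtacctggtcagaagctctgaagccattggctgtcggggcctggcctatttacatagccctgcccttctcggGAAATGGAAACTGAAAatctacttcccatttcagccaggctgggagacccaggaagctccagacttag
Rsad2 (chr12:26456403-26456702, minus strand): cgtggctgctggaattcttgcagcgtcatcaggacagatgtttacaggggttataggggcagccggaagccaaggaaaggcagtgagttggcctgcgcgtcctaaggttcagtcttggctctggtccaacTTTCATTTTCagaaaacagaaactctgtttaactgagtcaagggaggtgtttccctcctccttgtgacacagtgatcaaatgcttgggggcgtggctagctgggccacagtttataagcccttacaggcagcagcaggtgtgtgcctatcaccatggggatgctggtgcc
The first match began at position -40 from the start in Ifi206, at -73 in Ifi213, at -18 in Oas1g, where 2 matches overlap, and at -120 in Rsad2, where it lies on the opposite strand. Of the 12 genes, 11 had a window and 4 of the 11 (36.4%) held the motif. The windows of Irf7, Oasl1, Oasl2, Slfn1, Ifi209, Phf11d and Ifi44 held no run of these letters. The Ifi206 and Ifi213 windows aligned over 266 bases, of which 98.9% were identical. Whether reads of the 2 genes were shared by the counting was not tested. A gene with several annotated starts had several windows, and it was counted if any of them held the motif. Of all annotated genes with a window, 1079 of 27025 (3.99%) held the motif, and of the tested genes 386 of 9694 (3.98%). Among the interferon-stimulated families described below, 42 of 87 genes with a window (48.3%) held it. By family, 8 of 10 Ifi200, 4 of 5 IFIT, 4 of 6 oligoadenylate synthetase and 8 of 16 TRIM and nuclear body genes held it. So did 3 of 7 Schlafen, 12 of 33 antiviral effector, 2 of 6 poly(ADP-ribose) polymerase and kinase, and 1 of 5 ISG15 conjugation genes. Of 51 genes with a window that were higher in all SAMHD1 KO libraries than in all WT libraries, 14 (27.5%) held it, and of 28 that were lower in all, 0 did, where the share over tested genes is itself small.

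The 9 libraries held between 25886469 and 39590589 reads in the listed genes, and the 10 most abundant genes took between 16.0% and 19.1% of them. On the first principal component of the 9 libraries, which held 39.1% of the variance, SAMHD1 KO library 2 lay at 69.6 and WT library 3 at 56.0, and the others lay between -27.9 and -3.5. Sorted by the code that ends each column name, these 2 libraries come last of the 25. What the codes stand for is unknown here. Peritoneal macrophage identity was seen in all 9 libraries. Adgre1, which encodes F4/80, had between 77261 and 124970 normalized counts, Itgam, which encodes CD11b, between 139970 and 199840, and Gata6, the transcription factor of large peritoneal macrophages, between 4383 and 5857. Of 15 mesothelial and fibroblast marker genes, 0 were among the genes tested. Marker genes of other cell types were among them: 14 of 17 for B cells, 8 of 21 for T and NK cells and 8 of 13 for mast cells. So were 8 of 19 for neutrophils and eosinophils, 8 of 12 for dendritic cells and 5 of 10 for erythroid cells and platelets. The share of other cells in the preparations was not tested.

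Samhd1 itself was measured first. It had 1112, 4767, 1566 and 1299 normalized counts in the 4 SAMHD1 KO libraries and 10571, 10269, 12817, 9376 and 6486 in the 5 WT libraries. Every library labelled SAMHD1 KO lay below every WT library, with library 2 well above the other SAMHD1 KO libraries. Samhd1 fell by 2.42 ± 0.36 (SE) on the log2 scale (limma adjusted p = 0.0143), with a 95% interval from -3.17 to -1.66. Without SAMHD1 KO library 2 the change was -2.88. Ifih1, which encodes MDA5, had 1913, 1775, 2482 and 1932 normalized counts in SAMHD1 KO and 1869, 1760, 1729, 1632 and 2031 in WT (log2 fold change 0.16 ± 0.47, limma adjusted p = 0.982). Its SE comes from the spread pooled over all 6 genotypes, those lacking MDA5 included. Ddx58, which encodes RIG-I, had 1676, 2072, 2247 and 1932 in SAMHD1 KO and 1770, 1364, 1664, 1286 and 1598 in WT (0.37 ± 0.11, limma adjusted p = 0.641). Both sensor transcripts were thus present in all 9 libraries, and for both the groups overlapped. Of 103 tested genes within 5000000 bases of Samhd1 on chromosome 2, 0 passed the test with limma, 7 (6.8%, where 4.76% of all genes did) had an unadjusted p under 0.05, 3 in the positive and 4 in the negative direction, and the median log2 fold change was 0.0004. The nearest, the retinoblastoma-like gene Rbl1 at 10.6 kb, had a log2 fold change of -0.08 ± 0.15.

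Irf7 was the gene that rose and passed the test. Its normalized counts were 3211, 3619, 6114 and 4664 in the SAMHD1 KO libraries and 1879, 1150, 2042, 1494 and 2333 in the WT libraries. The lowest SAMHD1 KO library lay above the highest WT library. Irf7 (ENSMUSG00000025498, chromosome 7, 141262706 to 141266481, GRCm38) rose from 1780 ± 465 (SD, n = 5) to 4402 ± 1295 (SD, n = 4), a log2 fold change of 1.30 ± 0.21 (limma adjusted p = 0.0149), with a 95% interval from 0.87 to 1.73. Samhd1 and Irf7 were the 2 genes that passed of 13252 tested (0.0151%), 1 in each direction (0.00755%). Both lost their call when SAMHD1 KO library 3 (Irf7 at 1.13, Samhd1 at -2.34), SAMHD1 KO library 4 (1.26 and -2.26) or WT library 2 (1.16 and -2.39) was left out, and Irf7 also without WT library 4 (1.25). Both also lost it in a fit of the 9 libraries alone (limma adjusted p = 0.859 and 0.624). Irf7 lost it with library weights (limma adjusted p = 0.161) and without SAMHD1 KO library 2 and WT library 3 (limma adjusted p = 0.0583). In bulk RNA a larger share of responding cells and more RNA per cell cannot be told apart.

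**Figure D1:**
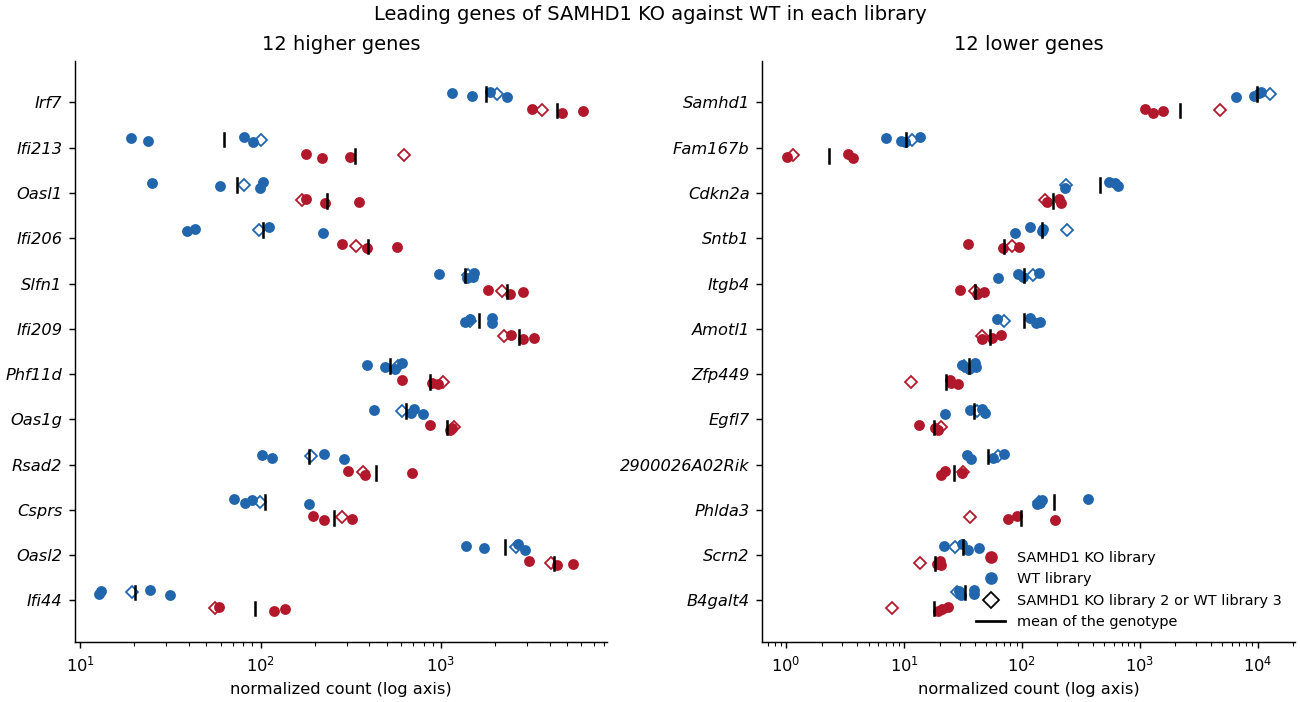
Normalized counts (log axis) of the 12 genes with positive and the 12 with negative log2 fold changes chosen by the smallest p, 1 symbol per library, SAMHD1 KO in red and WT in blue, with black bars for genotype means and open diamonds for SAMHD1 KO library 2 and WT library 3. The red and blue symbols do not overlap in 11 of the 12 genes on the left and in 9 of the 12 on the right.

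Behind Irf7 the order of genes by p was filled by interferon-stimulated genes that did not reach the threshold in the main fit. Ifi206, Ifi213 and Oasl1 did reach it with a pseudocount of 8, on the variance-stabilized values and with voom. At an unadjusted p under 0.05, 416 of the 13252 genes (3.14%) had a positive and 215 (1.62%) a negative log2 fold change. In 71 genes (0.536%) the lowest of the 4 SAMHD1 KO libraries exceeded the highest of the 5 WT libraries, and in 48 (0.362%) the reverse held. Of the 71 genes, 24 belonged to 8 families of interferon-stimulated genes, against 0 of the 48. The families held 106 of the 13252 tested genes, so 0 of the 48 is near what that share gives. They were chosen with earlier results of these data known. Of the 12 genes with positive changes that had the smallest p among those of at least 1.5-fold, 10 belonged to these families, and the other 2 were Irf7 and Csprs.

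**Figure D2:**
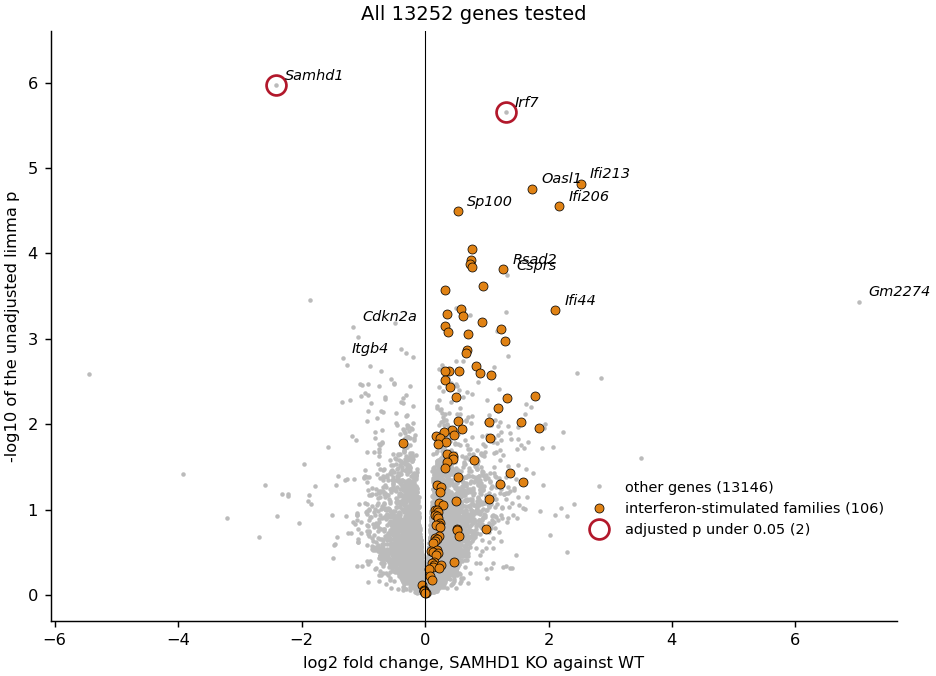
Unadjusted limma p (as -log10) against log2 fold change of SAMHD1 KO against WT for 13252 genes, with 106 members of the interferon-stimulated families in orange and the 2 genes with an adjusted p under 0.05 circled. Most orange points lie to the right of 0, and Samhd1 and Irf7 have the smallest p.

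The oligoadenylate synthetases make short adenylate chains from double-stranded RNA that act as an alarm signal against viruses. Of 8 tested members, 8 had a positive log2 fold change and 7 an unadjusted p under 0.05, with a median of 0.92. Oasl1, which has no synthetase activity and in mice restrains translation of Irf7 mRNA, had 180, 169, 353 and 229 normalized counts in SAMHD1 KO and 103, 25.04, 80.6, 59.5 and 99.9 in WT. The groups did not overlap, and the log2 fold change was 1.74 ± 0.32 (limma adjusted p = 0.0581). Oasl2, a second family member, had 3058, 4073, 5418 and 4399 in SAMHD1 KO and 2657, 1369, 2598, 1734 and 2916 in WT, again without overlap (0.94 ± 0.22, limma adjusted p = 0.246). Oas1g, whose promoter is printed above, had 868, 1174, 1149 and 1117 in SAMHD1 KO and 704, 426, 605, 683 and 790 in WT (0.77 ± 0.17, limma adjusted p = 0.183). Oas1c had the lowest value of the family, 0.18. Members of the Oas1 cluster are close copies of each other, so how their reads were divided is uncertain.

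The Ifi200 family, a cluster of interferon-inducible genes on chromosome 1 whose products bind DNA, held Ifi213 and Ifi206, the genes of the 8 families with the highest values. All 12 tested members had a positive log2 fold change, 11 had an unadjusted p under 0.05, and the median was 0.67. Ifi213 had 180, 622, 315 and 220 normalized counts in SAMHD1 KO and 80.9, 19.0, 99.98, 23.8 and 90.7 in WT. All 4 SAMHD1 KO libraries lay above WT, with library 2 the highest, and the log2 fold change was 2.52 ± 0.46 (limma adjusted p = 0.0581). Ifi206 had 281, 340, 572 and 391 in SAMHD1 KO and 111, 43.1, 98.0, 39.1 and 222 in WT (2.18 ± 0.42, limma adjusted p = 0.0706). At higher counts, Ifi209 ran from 2232 to 3290 in SAMHD1 KO and from 1358 to 1916 in WT (0.74 ± 0.16, limma adjusted p = 0.183). Ifi204, whose product acts with STING in DNA sensing, ran from 4413 to 5534 and from 3411 to 4209 (0.38 ± 0.11, limma adjusted p = 0.592). Aim2, which builds the inflammasome on cytosolic DNA, had the smallest value of the family, 0.22 ± 0.17.

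Single antiviral effectors spanned a wide range of values. Rsad2, which encodes viperin, an enzyme that makes a chain-terminating nucleotide, had 304, 369, 692 and 378 normalized counts in SAMHD1 KO and 224, 102, 191, 116 and 290 in WT, without overlap (1.27 ± 0.28, limma adjusted p = 0.183). Ifi44, a GTP-binding protein of the interferon response, had 59.1, 55.7, 137 and 119 in SAMHD1 KO and 24.4, 13.0, 19.4, 12.8 and 31.6 in WT, so its change of 2.11 ± 0.52 (limma adjusted p = 0.309) rests on low counts. Phf11d overlapped between groups by a single pair of libraries, with 607.02, 1022, 889 and 961 in SAMHD1 KO and a WT maximum of 607.45 (0.72 ± 0.16, limma adjusted p = 0.183). Of 42 tested antiviral effectors, 38 had a positive log2 fold change, 17 of them with an unadjusted p under 0.05, and Ifi27 had the lowest value, -0.36 ± 0.14.

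In the IFIT family, which binds foreign RNA ends, 5 of 5 tested members were positive with a median of 1.07, and Ifit1 (145 to 252 normalized counts in SAMHD1 KO, 48.1 to 143 in WT) was the member without overlap. In the Schlafen family, regulators of immune cell quiescence, 7 of 8 were positive with a median of 0.38. Slfn1 ran from 1830 to 2846 in SAMHD1 KO and from 980 to 1527 in WT (0.77 ± 0.16, limma adjusted p = 0.168). Slfn4 had 28954 counts in SAMHD1 KO library 2 and 10410 in WT library 3, against 657 to 5032 in the other 7 libraries, and its log2 fold change was 1.85 ± 0.67. It was 1.07 without SAMHD1 KO library 2, 2.53 without WT library 3 and 1.75 ± 0.40 without both.

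In the ISG15 conjugation system, which attaches a ubiquitin-like protein to other proteins, 6 of 6 were positive with a median of 0.35. Usp18, which removes ISG15 and dampens receptor signalling, ran from 528 to 981 in SAMHD1 KO and from 294 to 427 in WT (0.92 ± 0.23, limma adjusted p = 0.346). Of 17 TRIM and nuclear body genes, 17 were positive with a median of 0.24. Sp100, a nuclear body protein, ran from 3624 to 5001 in SAMHD1 KO and from 2580 to 3451 in WT (0.53 ± 0.10, limma adjusted p = 0.0706). Csprs, a gene derived from Sp100 repeats, ran from 194 to 323 and from 71.2 to 186 (1.33 ± 0.30, limma adjusted p = 0.198), and reads of its near copies may be counted with it. Of the poly(ADP-ribose) polymerases and the RNA-activated kinase Eif2ak2, 9 of 9 were positive with a median of 0.24.

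Over all 8 families, 101 of 106 tested members had a positive log2 fold change, where 51.2% of all tested genes did. The members' median was 0.35, against 0.00 over all genes. At an unadjusted p under 0.05, 58 members were positive and 1 negative, where 3.14% and 1.62% of all genes were. Genes of a list can move together between libraries, so these are not counts of independent genes. Of 39 cell cycle and DNA replication genes, for example, 39 were negative and 0 had an unadjusted p under 0.05. The mean log2 level of the 106 members was 9.715, 9.987, 10.138 and 9.915 in the SAMHD1 KO libraries and 9.559, 9.042, 9.536, 9.238 and 9.562 in the WT libraries, where WT library 2 was the lowest. Without SAMHD1 KO library 2 and WT library 3 the median was 0.40, with 103 members positive.

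**Figure D3:**
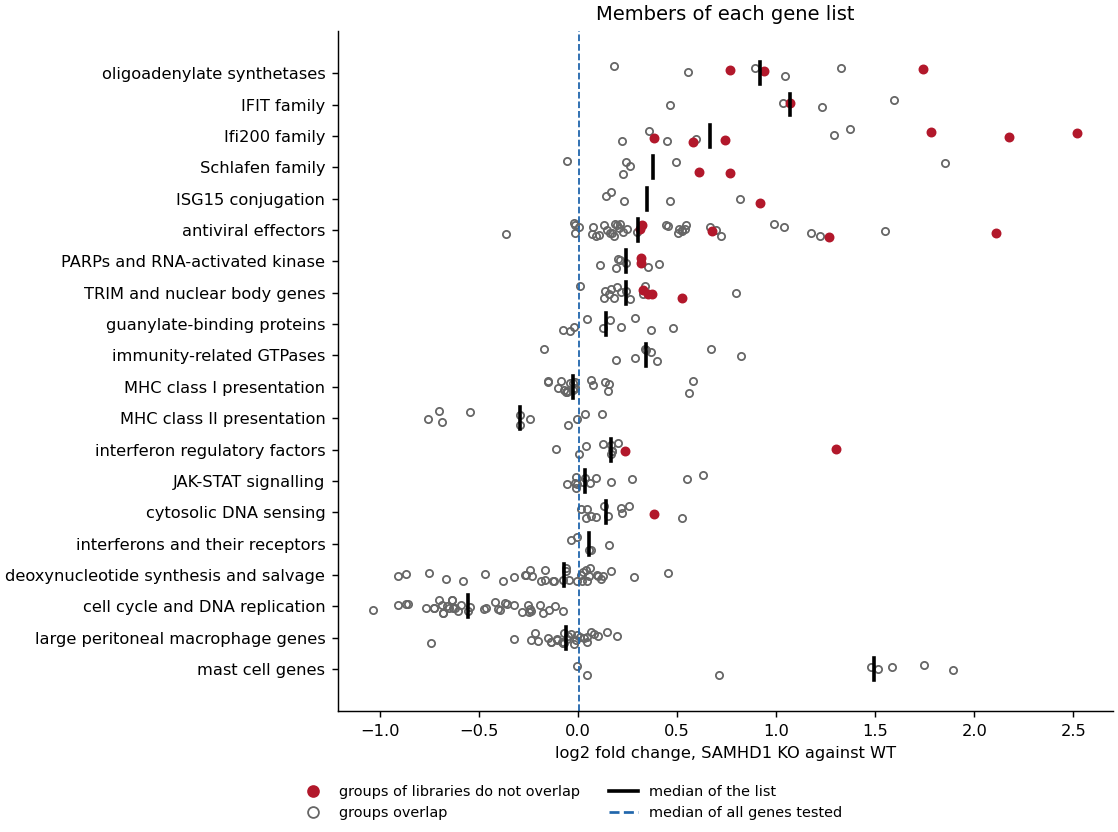
Log2 fold change of SAMHD1 KO against WT for the tested members of 20 gene lists (Samhd1 left out), 1 circle per gene, filled where the SAMHD1 KO and WT libraries do not overlap, with a black bar for the median of each list and a dashed line for the median of all genes. The lists of oligoadenylate synthetases, IFIT and Ifi200 genes have medians of 0.67 to 1.07 and the MHC class I list lies at -0.02.

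In the interferon pathway above these genes Irf7 was the gene that passed the test. Interferon genes themselves were below the filter or not listed: of 14 ligand and receptor genes, the 5 tested were receptor chains, with log2 fold changes between -0.04 and 0.16. The receptor chain Ifnar1 was at 0.06 ± 0.08 and Ifnar2 at -0.01 ± 0.10. Of 11 tested interferon regulatory factors and their partners, Irf7 included, 10 were positive with a median of 0.17, and their mean log2 level ran from 11.45 to 11.55 in SAMHD1 KO and from 11.23 to 11.36 in WT. Among them Irf9, the DNA-binding part of the STAT complex, had 2998, 2959, 3274 and 3043 normalized counts in SAMHD1 KO and 2776, 2607, 2192, 2562 and 2947 in WT. These groups did not overlap, and the difference was small (0.24 ± 0.09, limma adjusted p = 0.917). Irf3, which acts directly downstream of the RNA and DNA sensors, was at 0.17 ± 0.15. Stat2, a signal transducer of the receptor, was at 0.55 ± 0.17 (limma adjusted p = 0.679), with overlapping groups. Of the feedback inhibitors, Socs1 was at 0.63 ± 0.27.

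Genes whose mutation also causes Aicardi-Goutieres syndrome were listed. Trex1, the main cytosolic DNA exonuclease, had 2067, 2093, 2591 and 2427 normalized counts in SAMHD1 KO and 1846, 1765, 1699, 1927 and 1850 in WT, without overlap (0.33 ± 0.10, limma adjusted p = 0.592). Adar, which edits double-stranded RNA, ran from 3535 to 4364 in SAMHD1 KO and from 2826 to 3427 in WT (0.32 ± 0.08, limma adjusted p = 0.355). The ribonuclease H2 subunits Rnaseh2a (-0.15 ± 0.09) and Rnaseh2c (-0.31 ± 0.15) had negative values and overlapping groups. Of 12 tested genes of cytosolic DNA sensing, 12 were positive with a median of 0.14, and their mean log2 levels overlapped between genotypes. The DNA sensor Cgas was at 0.26 ± 0.14 and its adaptor Sting1 at 0.05 ± 0.16.

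Gene groups known to respond strongly to type II interferon were listed apart from the antiviral families. Of 10 tested guanylate-binding proteins, GTPases that attack pathogen vacuoles, 7 were positive with a median of 0.14 and 0 had an unadjusted p under 0.05 (0 passed with limma). Of 9 immunity-related GTPases, 8 were positive with a median of 0.34, and Irgm1, which controls the family, was at 0.40 ± 0.17 (limma adjusted p = 0.965). MHC class I presentation genes had a median of -0.02, with 7 of 22 positive, and MHC class II genes a median of -0.29, with 2 of 11 positive. Of these, 1 class I gene (positive) and 0 class II genes had an unadjusted p under 0.05. The mean log2 level of class II genes ran from 10.121 to 11.125 in SAMHD1 KO and from 10.039 (library 3) to 11.871 (library 5) in WT. That of class I genes ran from 12.365 to 12.84 and from 12.42 to 12.9, so both lists overlapped between genotypes. With SAMHD1 loss in cells lacking MDA5 or RIG-I the medians were positive, at 0.25 and 0.22 for class I and at 0.32 and 0.09 for class II. Guanylate-binding proteins were at 0.41 and 0.38 there, with 10 of 10 positive in both. H2-Aa, a class II chain, was at -0.76 ± 0.59. Of 22 inflammatory genes driven by NF-kB, 12 were positive with a median of 0.05. Differences between these lists and the antiviral families were not tested.

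In the negative direction Samhd1 was the gene that fell, and the next 11 genes did not pass the test. Cdkn2a, which encodes the cell cycle inhibitors p16INK4a and p19ARF, had 206, 156, 162 and 216 normalized counts in SAMHD1 KO and 544, 620, 236, 654 and 231 in WT. The groups did not overlap, but 2 WT libraries lay close to the SAMHD1 KO libraries (-1.17 ± 0.30, limma adjusted p = 0.355). Itgb4, an integrin chain of epithelial adhesion, had 30.1, 39.8, 47.4 and 41.9 in SAMHD1 KO and 140, 93.2, 124, 101 and 62.2 in WT, without overlap (-1.33 ± 0.37, limma adjusted p = 0.560). Sntb1, a syntrophin that links the dystrophin complex to signalling proteins, ran from 34.6 to 94.8 in SAMHD1 KO and from 87.7 to 240 in WT (-1.09 ± 0.29, limma adjusted p = 0.397). Phlda3, a p53 target that restrains Akt, had 362 counts in WT library 1 and 136 to 148 in the other 4 WT libraries (-1.02 ± 0.31, limma adjusted p = 0.643). The mean over WT was under 100 normalized counts in 6 of the 12 genes, as low as 10.4 for Fam167b. Of the 12, 0 belonged to the interferon-stimulated families, which held 106 of the 13252 tested genes.

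The loss of SAMHD1 was also measured in cells lacking MDA5 (SAMHD1, MDA5 DKO against MDA5 KO) and in cells lacking RIG-I (RIG-I KO as control of SAMHD1, RIG-I DKO), which share no library with the comparison above. All 12 genes with positive changes had a positive log2 fold change with an unadjusted p under 0.05 in both, where 1.76% and 1.83% of all genes did. Every comparison used the same estimate of each gene's spread, so these p-values are not independent of those that chose the 12 genes. Irf7 was at 0.88 ± 0.22 without MDA5 and 1.23 ± 0.22 without RIG-I. Oasl1 was at 1.89 ± 0.34 and 1.91 ± 0.34. The median of the 12 genes was 1.29 with both sensors, 0.98 without MDA5 and 1.23 without RIG-I. Of the 12 genes with negative changes, 5 had a negative change with an unadjusted p under 0.05 without MDA5 and 4 without RIG-I, where 2.2% and 1.71% of all genes did. Samhd1, Cdkn2a and Itgb4 did so in both. Cdkn2a was at -0.93 ± 0.32 and -1.13 ± 0.32, and Itgb4 at -1.23 ± 0.40 and -1.56 ± 0.40.

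The difference between backgrounds was tested for each gene as an interaction. Over 13252 genes, 0 passed with limma for either sensor, while 368 (2.78%) had an unadjusted p under 0.05 for MDA5 and 375 (2.83%) for RIG-I. Of the 24 genes, 0 had an unadjusted p under 0.05 for MDA5 and 3 for RIG-I, Fam167b, Zfp449 and B4galt4. The 24 genes were chosen by p in the comparison with both sensors, which also enters the interaction. Counts among the 24 therefore cannot decide whether effects differ between backgrounds. For Irf7 the effect of SAMHD1 loss was smaller by 0.42 ± 0.30 without MDA5 and differed by -0.07 ± 0.30 without RIG-I, neither with an unadjusted p under 0.05. Errors of this size do not show that the effects are equal.

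**Figure D4:**
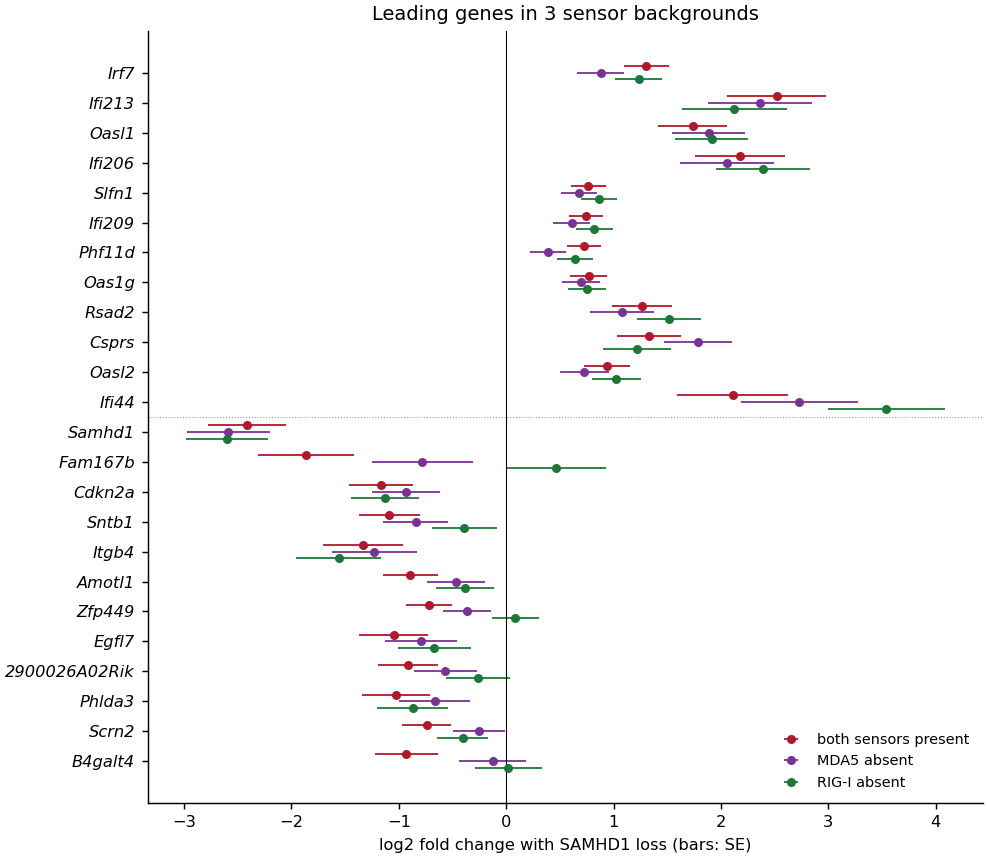
Log2 fold change with SAMHD1 loss for 24 genes (bars are SE) with both sensors present (red), without MDA5 (purple) and without RIG-I (green), with positive genes above and negative genes below the dotted line. All 3 points lie above 0 for each of the 12 upper genes, while several lower genes such as Fam167b and B4galt4 have points near or past 0.

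Across the 3 comparisons, 50 of the 13252 tested genes had a positive and 9 a negative log2 fold change with an unadjusted p under 0.05 in each. Of the 50, 32 belonged to the interferon-stimulated families, which held 106 of the tested genes, and 18 did not. Outside the families were Irf7, Irf9, Csprs and Trex1, described above. Axl, a receptor that clears dying cells and dampens interferon responses, was at 0.85 ± 0.26 with both sensors, 1.12 ± 0.27 without MDA5 and 1.33 ± 0.27 without RIG-I. The complement gene C2 was at 1.34 ± 0.48, 1.95 ± 0.50 and 1.19 ± 0.50. Dhx58, which encodes the third RIG-I-like receptor LGP2, was at 0.38 ± 0.14, 0.33 ± 0.14 and 0.41 ± 0.14. In the negative direction, Stab1, a scavenger receptor, was at -0.74 ± 0.29, -1.27 ± 0.31 and -1.16 ± 0.31, and Igfbp4, an insulin-like growth factor binding protein, at -0.65 ± 0.21, -0.75 ± 0.22 and -0.65 ± 0.22. WT library 5 had 5228 normalized counts of Stab1, below all SAMHD1 KO libraries (6298 to 8185). It had 248 of C2, where the highest SAMHD1 KO library had 249. With both sensors present, the groups overlapped for each of Axl, C2, Dhx58, Stab1 and Igfbp4, and their limma adjusted p-values lay between 0.643 and 0.965. These genes were chosen after their values were seen.

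Enzymes that make and salvage deoxynucleotides, the substrates of SAMHD1, had a median of -0.07 over 36 tested genes, with 14 positive. Rrm2, the ribonucleotide reductase subunit of dividing cells, had 39.1, 71.6, 52.5 and 524 normalized counts in SAMHD1 KO and 552, 38.1, 296, 151 and 184 in WT. Single libraries of both genotypes were high, and the value was -0.91 ± 0.66 (limma adjusted p = 0.965). Cmpk2, a mitochondrial nucleotide kinase that sits beside Rsad2 and responds to interferon, was at 0.45 ± 0.19 (limma adjusted p = 0.965).

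In several lists single libraries stood apart within a genotype. Cell cycle and DNA replication genes had negative log2 fold changes in 39 of 39 members, with a median of -0.56 and 0 at an unadjusted p under 0.05 (0 passed with limma). The mean log2 level of these genes was 6.41, 6.88, 6.54 and 9.02 in SAMHD1 KO and 9.11, 5.77, 8.23, 7.79 and 7.71 in WT, so 1 SAMHD1 KO library lay near the top and 1 WT library at the bottom. The median was -1.19 without SAMHD1 KO library 4, with 28 members negative at an unadjusted p under 0.05, where 3.64% of all genes were. It was -1.08 without WT library 2, with 18 such members, where 2.4% of all genes were, and -0.19 without WT library 1, with 0. The median was 0.21 without MDA5 and 0.34 without RIG-I. Mast cell genes had a median of 1.496 over 8 tested members, above that of each interferon-stimulated family. Of the 8, 7 were positive, 4 of them with an unadjusted p under 0.05, where 3.14% of all genes were. Their mean log2 level was 5.79, 6.74, 5.50 and 7.94 in SAMHD1 KO and 4.16 to 6.26 in WT. Without SAMHD1 KO library 4 the median was 0.70, and without WT library 2 it was 0.88. With SAMHD1 loss in the other backgrounds it was -0.95 without MDA5, with 0 of 8 positive, and 0.10 without RIG-I. Tpsb2, a mast cell tryptase, had 374 normalized counts in SAMHD1 KO library 4 and 4.01 to 84.1 in the other 8 libraries. Whether mast cells take part in any value above was not tested.

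Ribosomal protein genes and immediate early genes set SAMHD1 KO library 2 and WT library 3 apart. The mean log2 level of 77 ribosomal protein genes was 12.82 and 12.50 in these libraries and between 13.21 and 13.77 in the other 7. That of 25 immediate early and dissociation genes was 11.40 and 10.82 in them. It was 10.43, 10.18 and 10.50 in the other SAMHD1 KO libraries and 9.95, 10.09, 10.25 and 10.12 in the other WT libraries. Of the 25 genes, 23 had a positive log2 fold change, 1 of them with an unadjusted p under 0.05, and the median was 0.29. Fos, an early-response transcription factor, had 10186 and 3727 normalized counts in SAMHD1 KO library 2 and WT library 3 and 485 to 1690 in the others. With all 9 libraries, ribosomal protein genes had a median of -0.19, with 75 of 77 members negative, 1 of them at an unadjusted p under 0.05. Without SAMHD1 KO library 2 and WT library 3 the median was -0.31. Then 44 of 77 members were negative at an unadjusted p under 0.05, where 2.88% of all genes were. Without WT library 3 alone, 70 of the 77 were so, where 7.77% of all genes were, and without SAMHD1 KO library 2 alone, 0, where 1.25% were. The ribosomal median was 0.14 without MDA5 and 0.11 without RIG-I. Large peritoneal macrophage genes had a median of -0.06 over 30 tested members, with 9 positive, and Cxcl13, a chemokine for B cells made by these macrophages, was at -0.74 ± 0.31 (limma adjusted p = 0.965).

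**Figure D5:**
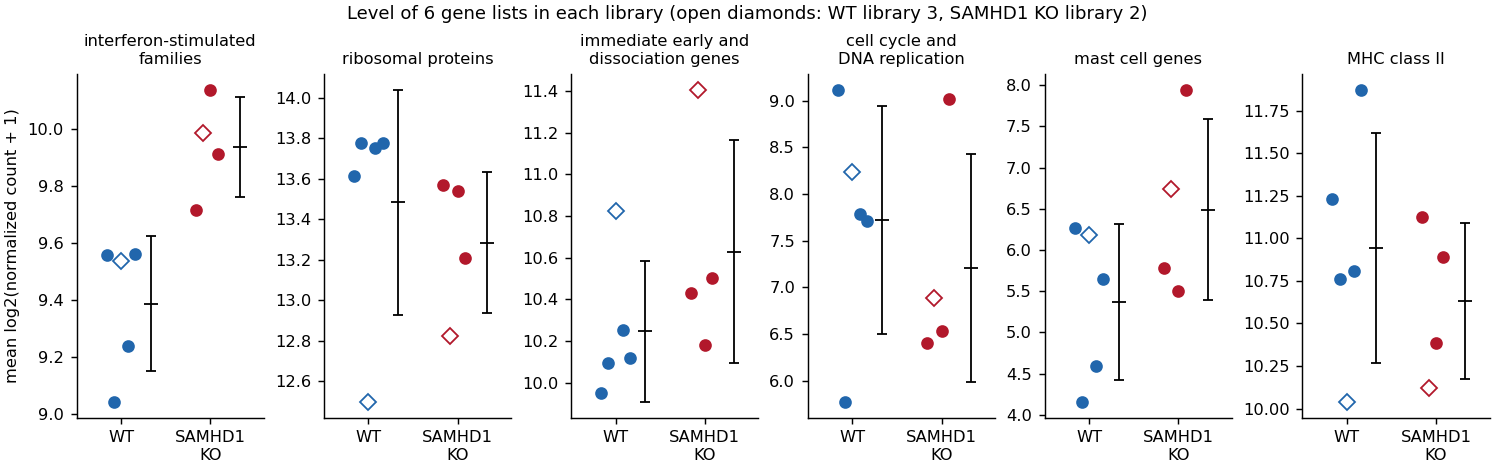
Mean of log2(normalized count + 1) over the members of 6 gene lists, 1 symbol per library, with open diamonds for WT library 3 and SAMHD1 KO library 2 and bars for the mean and SD of each genotype (n = 5 and 4). The genotypes are separate for the interferon-stimulated families (9.04 to 9.56 against 9.72 to 10.14) and overlap in the other 5 lists.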

How the data were processed

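Total RNA of 25 libraries of peritoneal macrophages was measured by RNA-seq. The deposited log2 values per library are, as the values show, variance-stabilized with a floor of 5.81 at a count of 0. The authors also deposited group means of the normalized signal, per the file headers, and log2 fold changes and p-values of their own comparisons, which were not used. STAR, Salmon, DESeq2, R 4.1.2, GRCm38 and mm10 are listed in the submitters' processing notes. The labels' protocols describe another pipeline, and the sources used here do not say which made the values.

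The transformation was inverted. Recovered values matched the deposited group means to a relative difference of 3.5e-14, and 100% were whole reads at a tolerance of 0.01. For the main test, limma 3.58.1 (R 4.3.3, trend and robust, statmod 1.5.0) was fitted to log2 of normalized count + 1, over all 25 libraries with genotype as the factor. The test was two-sided, with Benjamini-Hochberg adjustment over 13252 genes and a threshold of 0.05. The whole reads also allowed a fit based on counts, and limma's voom on them was an alternative, in which 5 genes passed. The added 1 shrinks fold changes of low genes. Errors of log2 fold changes are SE. Replicates of a genotype differed beyond sampling noise (chi-square divided by its degrees of freedom, 31.8 to 211). For 994 of 1007 genes without a symbol, GENCODE M21 gave a name. Named genes were Samhd1, the sensors, every gene that passed, the 12 positive and 12 negative genes of smallest p among those of at least 1.5-fold, and up to 4 members of each list by p; other members named in the text were chosen after their values were seen. Members and lists were chosen with earlier results of these data known, and some genes are not reported here. Libraries numbered by column were assigned to a genotype by the start of the column name. The fit was also run on simulated counts. There the changed genes were drawn from those of higher mean and no library was made to stand apart. That run therefore cannot show how calls depend on single libraries.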

Additional observations from a re-analysis of the deposited data

Results flagged for a closer look

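Dixon's ratio was taken in 70 sets of 4 or 5 libraries of 1 genotype, for single genes and for mean levels of families. In 4 sets a library lay far from the others, by a rule that chance meets in about 1 set in 20. A count of 4 in 70 is near that rate. Samhd1 was highest in SAMHD1 KO library 2, at 4767 normalized counts, against 1112 to 1566 in the other SAMHD1 KO libraries. Slfn1 was lowest in WT library 2, at 980. Csprs was highest in WT library 5, at 186. Phlda3 was highest in WT library 1, at 362.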

How the results depend on the processing

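Over 20 other settings, the sign of each of the 26 genes named by rule was kept wherever it was tested. The count of genes that passed was 2. With 1 library left out it lay between 0 and 9 (higher 0 to 7, lower 0 to 3): 0 without SAMHD1 KO library 3 or 4 or WT library 2, 1 without WT library 4, 4 without WT library 1, 5 without SAMHD1 KO library 1, 8 without WT library 5 and 9 without WT library 3. Irf7 lay between 1.13 and 1.44 and Samhd1 between -2.88 and -2.18. It was 5 (4 higher) with a pseudocount of 8, on the variance-stabilized values and with voom, adding Ifi206, Ifi213 and Oasl1. With the run of library codes as a term it was 7 (6 higher). Without SAMHD1 KO library 2 and WT library 3 it was 1 (0 higher), Samhd1, with Irf7 at 1.44 (limma adjusted p = 0.0583), and with library weights 1 (0 higher), with Irf7 at 1.26 (0.161). With only the 9 libraries in the fit it was 1 (0 lower), Gm2274, with Irf7 at 1.30 (0.859) and Samhd1 at -2.42 (0.624). Over all settings the adjusted p of Irf7 ran from 0.00522 to 0.859 and that of Samhd1 from 0.000143 to 0.624. Genes above WT in all SAMHD1 KO libraries numbered 100 to 417 and those below 72 to 379 with 1 library left out, and 513 and 446 without both libraries named above, since fewer libraries overlap less. The median of the interferon-stimulated families was between 0.29 and 0.41. Under library weights, 8 in place of 5 of the 12 genes with negative changes had an unadjusted p under 0.05 without MDA5. The alternatives for the other backgrounds, the lists, Slfn4 and the neighbours of Samhd1 were chosen after seeing the data. Where no cause is named, the cause was not tested. No paired analysis was possible because the columns carry no replicate number of the labels. With 4 and 5 libraries, genes of low counts have wide errors, and adjusted p-values near the threshold depend on single libraries.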

Other observations

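Gm2274 (ENSMUSG00000098369), annotated as an unprocessed pseudogene on chromosome 14 from 26156036 to 26163648 (GRCm38), was the gene called when only the 9 libraries were fitted (limma adjusted p = 1.38e-06), and it was named after its values were seen. It had 133, 121, 131 and 135 normalized counts in the SAMHD1 KO libraries and 0 in each of the 5 WT libraries, at least 44.9-fold higher against a floor of 3 counts per WT library. In other genotypes it was present in some libraries and at 0 in others. In MDA5 KO it had 36.5 in 1 library and 0 in 3. In RIG-I KO it had 122 and 124 in 2 libraries and 0 in 2. In SAMHD1, MDA5 DKO it had 106 in 1 library and in SAMHD1, RIG-I DKO 109 in 1, with 0 in the other 3 of each. In the fit of all 25 libraries its limma adjusted p was 0.305.

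A second gene of chromosome 14, Gm2260 (26016431 to 26025837), was also present in some libraries only. It had 69.2, 0, 0 and 0 normalized counts in SAMHD1 KO and 192, 201, 105, 63.8 and 117 in WT. It was at 0 in the 2 RIG-I KO libraries and the 1 SAMHD1, RIG-I DKO library that held Gm2274. MDA5 KO library 2 held both, with 158 of Gm2260, as did the SAMHD1, MDA5 DKO library with Gm2274, with 57.6. What sets the pattern was not tested.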
